A study of Bos taurus with 35 samples.

Results

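The step from 48 h to 72 h *post-mortem* was examined in beef *longissimus thoracis* (*LT*) muscle by comparing the 7 samples labelled 72 h with the 7 samples labelled 48 h, each pair taken from the same animal, which made 14 of the 35 samples in the series. The animals were 7 crossbred British × Continental beef heifers, numbered 101, 103, 104, 107, 201, 202 and 206, with weights from 525 to 635 kg in the sample labels. Carcass sides were held in a drip cooler, and cores were removed from the left side at 0, 6, 24, 48 and 72 h. By the paper, the cores labelled 0 h were taken within the first hour after death. RNA from every core was sequenced as a stranded mRNA library. The labels name no treatment or genotype that differs between the heifers, and the groups are labelled by the time of the core. The labels name the muscle *longissimus thoracis et lumborum*, while the paper names *longissimus thoracis*. All cores came from above the grading site, a further core was taken at each time, and where the cores of 1 animal lay relative to each other is not given in the sources used here, so time and place cannot be told apart.

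Skeletal muscle after slaughter no longer receives blood, oxygen or new cells, and its mRNA pool changes through what is still transcribed and through how fast each mRNA is lost. Muscle fibres hold most of the RNA of the tissue, while fibroblasts, macrophages, adipocytes, vessels and nerve add smaller parts. In bulk RNA, fewer cells of a type and less RNA per cell cannot be told apart. The HOX genes, which are central to the results below, encode homeodomain transcription factors that set position along the body axis of the embryo, and adult tissues keep much of that positional expression. They lie in 4 clusters, HOXA to HOXD, whose gene numbers follow the order from front to rear.

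Total counts were 20568418 to 86084061 at 48 h and 23359118 to 104275821 at 72 h. That the tissue was skeletal muscle was borne out by the fibre markers. The 7 named markers that were tested summed to 59400 to 68100 CPM (read counts scaled to the size of each library) at 48 h and 63100 to 91700 CPM at 72 h. No pair among the 14 libraries held identical counts. All levels below are CPM after TMM (trimmed mean of M-values) normalization, and all changes are fitted log2 changes at 72 h relative to 48 h, with the false discovery rate (FDR) of edgeR's quasi-likelihood test with animal as block and Benjamini-Hochberg adjustment. A gene is called DE (differentially expressed) where the FDR was under 0.05 and the change exceeded 1.5-fold. The p-values rest on the spread left after time point and animal were fitted to all 35 samples of this one group of heifers. They do not measure how far the 7 animals differ in this step. Genes singled out by rank had to share the sign of change in all 7 animals, so that agreement is no result for them.

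Of 14630 genes tested, 115 (0.786%) were upregulated and 545 (3.73%) were downregulated at 72 h, which is 4.74 downregulated genes for each upregulated one. By FDR alone, without the fold threshold, the sides were nearly equal, with 2411 genes (16.5%) higher and 2430 (16.6%) lower. With total counts in place of TMM factors the split was 64 higher and 866 lower, so that upregulated genes made up 6.88% of the calls instead of 17.4%. The median change was 0.713 over the upregulated genes and -0.742 over the downregulated ones on the log2 scale, and 18 and 78 of them, respectively, passed 2-fold. Of the downregulated genes, 409 were lower in all 7 animals, where 11.8% of all tested genes were, and 22 had 48 h and 72 h groups that did not overlap. Among the upregulated genes, 46 were higher in all 7 animals, where 9.49% of all tested genes were, and 5 had groups that did not overlap (PRR32, FHL2, HAPLN2, CCDC42 and ENSBTAG00000012721). Groups without overlap were found in 0.239% of all tested genes in each direction. Without the animal as block, 28 genes were upregulated and 317 downregulated. Low expression was common on the upregulated side: 51.3% of those genes averaged below 1 CPM, against 21.5% of the downregulated genes and 17.1% of all tested genes.

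**Figure D1:**
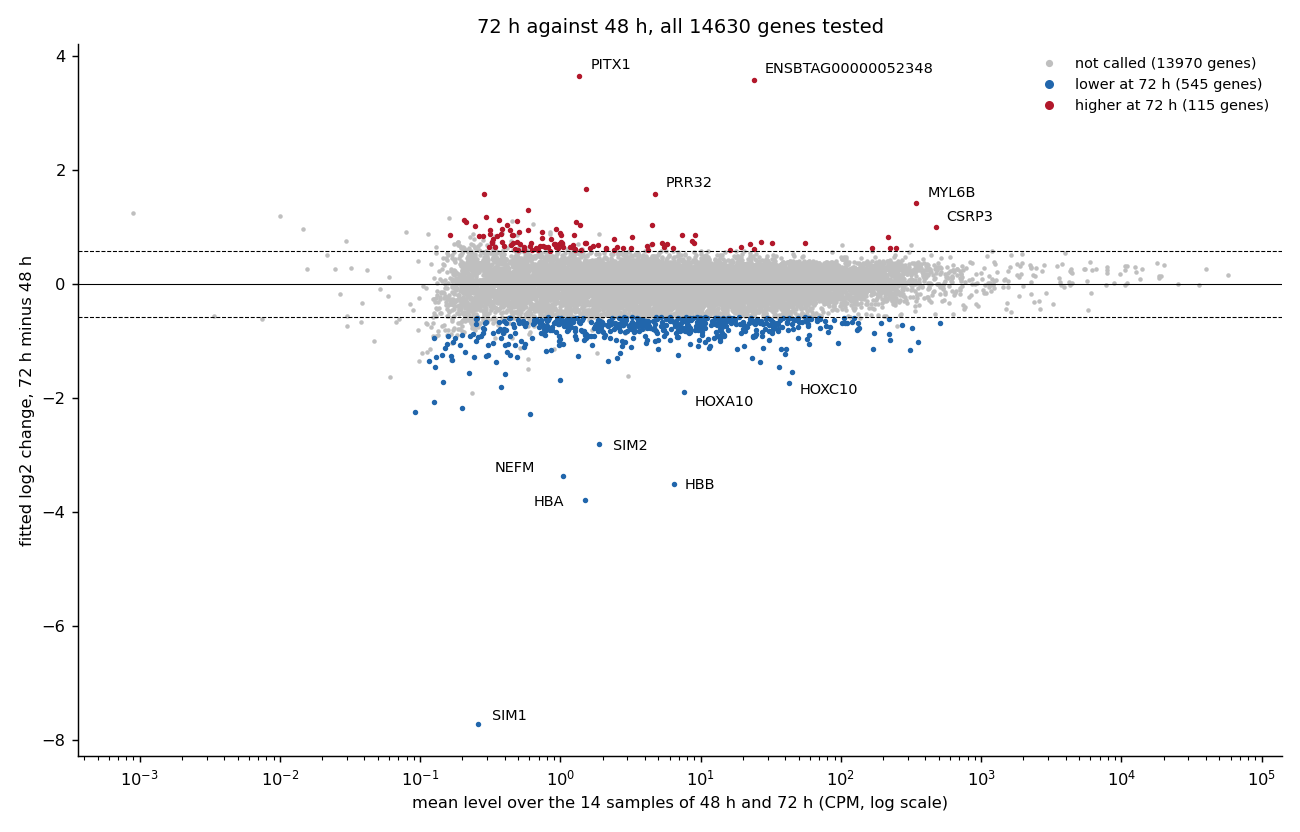
Fitted log2 change from 48 h to 72 h (vertical axis) against the mean level over the 14 samples in CPM (horizontal axis, log scale) for the 14630 genes tested, with dashed lines at 1.5-fold. The 545 downregulated genes (blue) outnumber the 115 upregulated genes (red), and SIM1, SIM2, HOXA10, HOXC10, PITX1 and ENSBTAG00000052348 stand away from the main cloud. The fitted value of SIM1 depends on the prior count because its 72 h libraries hold no read.

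Several of the largest changes at this step fell on transcription factors of embryonic development, and SIM1 was no longer detected in any 72 h library. SIM1 and SIM2 encode the mammalian counterparts of the fly factor single-minded, basic helix-loop-helix proteins of developing nervous system and muscle. SIM1 was measured at 0.249, 0.593 and 0.74 CPM (lowest, median and highest animal) at 48 h, from 168 counts in all, and 0 counts were found in each of the 7 libraries at 72 h. Set against a floor of 3 counts over the whole 72 h group (0.00845 CPM), SIM1 was at least 60.9-fold lower (FDR = 2.2e-08); this limit covers counting error only. SIM2 stood at 1.89, 3.29 and 5.02 CPM at 48 h and at 0.18, 0.452 and 0.731 CPM at 72 h. Each animal lost most of its SIM2 signal and the groups did not overlap. The change was -2.81 ± 0.126, or 7.02-fold, at an FDR of 1.4e-15, the lowest of the contrast. Here and below, ± after a log2 change is the SE from the model fitted to all 35 samples. It is not the spread of the changes in the 7 pairs. At 0, 6 and 24 h the means of SIM2 were 3.13, 3.57 and 3.94 CPM, so the 48 h level was still within the range of the earlier times.

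HOX genes with a symbol here changed in both directions. Of these 9 genes, chosen as a group after their values were seen, 6 were downregulated, HOXC9 was higher without reaching 1.5-fold, and HOXA4 and HOXD4 did not pass the test; over all tested genes 3.73% were downregulated and over genes with a symbol 14%. Symbols were known only for genes already DE against the first time point on these same samples, so these are not an independent sample of HOX genes. HOXC10 was measured at 48.5, 68.2 and 73.2 CPM at 48 h and at 14.7, 19.6 and 27.8 CPM at 72 h. Its groups were wide apart, and the fall of 3.33-fold (log2 change -1.74 ± 0.0954, FDR = 1.7e-13) was seen in 7 of 7 animals. HOXA10 went from 7.88, 13 and 15.8 CPM to 1.59, 3.39 and 4.03 CPM, a fall of 3.71-fold (log2 change -1.89 ± 0.109, FDR = 4.2e-13) with no overlap. HOXD10, the remaining member numbered 10, was near the limit of detection, with 78 counts at 48 h and 26 counts at 72 h over the 7 libraries, and it was lower in 6 of 7 animals (log2 change -1.72 ± 0.385, FDR = 0.0018).

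HOXA9, the neighbour of HOXA10 in the same cluster, stood at 36.0, 39.8 and 49.4 CPM at 48 h and at 11.8, 18.8 and 34.0 CPM at 72 h. The highest 72 h value, from animal 206, lay just below the lowest 48 h value from the same animal, and the change of -0.99 ± 0.135 (FDR = 4e-05) was borne mainly by the other 6 animals. HOXC9, in contrast, went from 13.1, 15.8 and 21.2 CPM to 19.4, 25.7 and 28.9 CPM. It was higher in 7 of 7 animals with overlapping groups, at a log2 change of 0.57 ± 0.0737 (FDR = 1.9e-05), which is 1.49-fold and just under the threshold. HOXC9 and HOXC10 lie next to each other in the HOXC cluster with only a microRNA gene between them in the RefSeq order of the ARS-UCD2.0 assembly, and at this step they moved in opposite directions.

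Among the HOX genes of lower number, HOXB4 was measured at 1.89, 2.49 and 3.69 CPM at 48 h and at 0.854, 1.19 and 2.34 CPM at 72 h, and it fell in 7 of 7 animals (log2 change -0.92 ± 0.119, FDR = 1.9e-05) although the groups overlapped. HOXA6 went from 3.77, 5.04 and 5.49 CPM to 2.61, 2.91 and 4.06 CPM, where the top value again came from animal 206 (log2 change -0.69 ± 0.0883, FDR = 1.9e-05). HOXA4 stayed within its spread, with a log2 change of 0.12 ± 0.108 (FDR = 0.40), and HOXD4 gave -0.02 ± 0.199 (FDR = 0.94). The microRNA gene bta-mir-196b, which RefSeq places between HOXA10 and HOXA9, was downregulated too (log2 change -1.28 ± 0.291, FDR = 0.0021), on 94 counts at 48 h and 46 at 72 h. These libraries select polyadenylated RNA, so its counts come from longer transcripts over the hairpin and not from the mature microRNA. The methods name strand-specific counting but list the option for unstranded counting. The paper states that its test used counts from the sense strand, and the deposited counts are labelled reverse strand. Whether reads of HOX genes and of antisense transcripts over them are mixed could not be settled here.

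**Figure D2:**
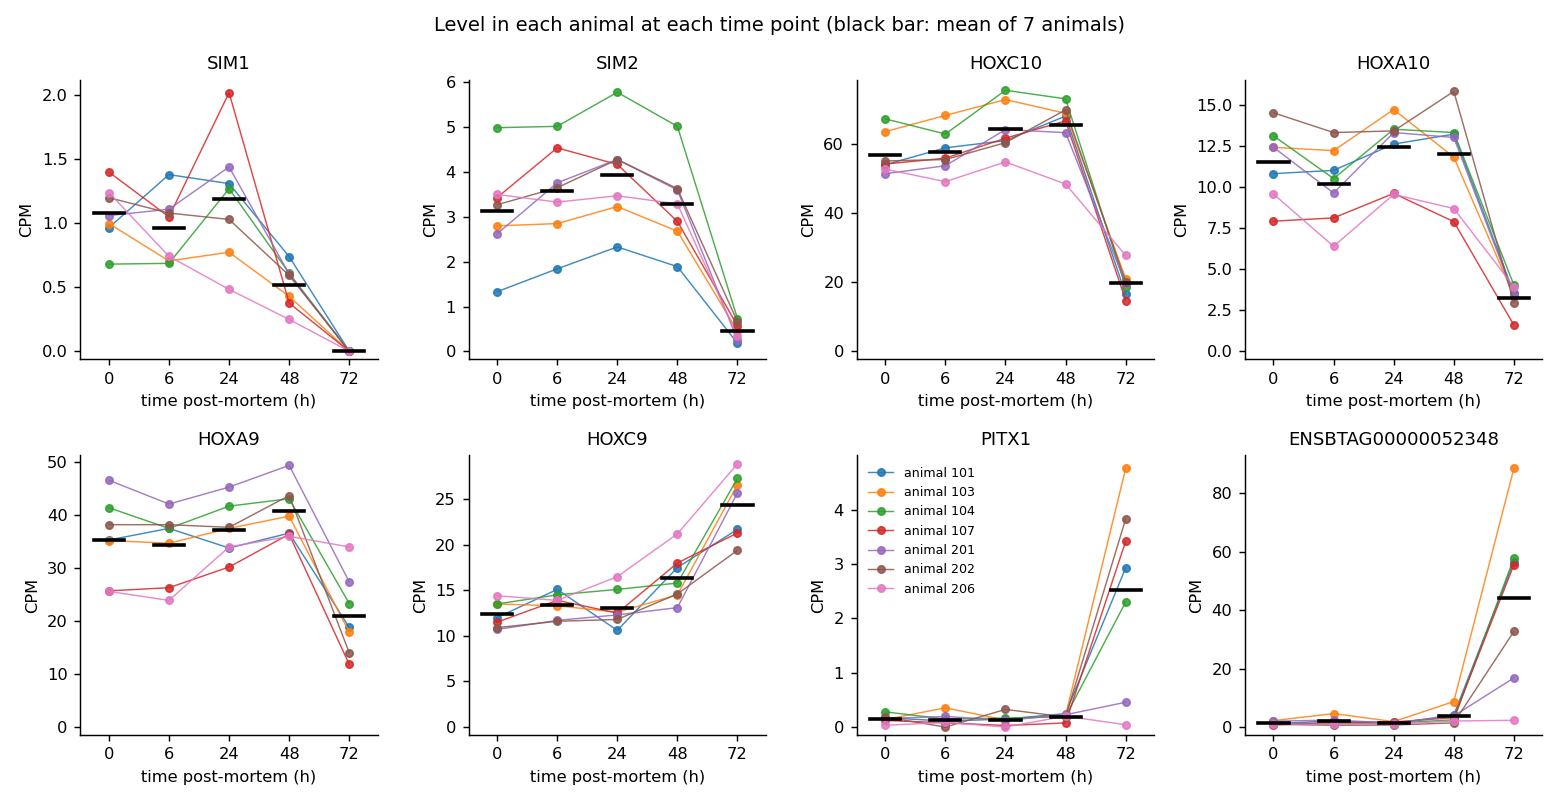
Level in CPM (vertical axes, linear) at 0, 6, 24, 48 and 72 h for each of the 7 animals (coloured lines) with the mean of the 7 (black bars). The means of SIM1, SIM2, HOXC10, HOXA10 and HOXA9 drop at 72 h, while those of HOXC9, PITX1 and ENSBTAG00000052348 rise there. Animal 206 stood at 0.0419 CPM for PITX1 and at 2.3 CPM for ENSBTAG00000052348 at 72 h.

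On the upregulated side the largest change belonged to PITX1, a homeodomain factor that specifies hind limb and pituitary in the embryo. PITX1 was nearly absent at 48 h, at 0.0754, 0.2 and 0.247 CPM, and reached 0.0419, 2.93 and 4.76 CPM at 72 h (log2 change 3.64 ± 0.386, or 12.5-fold, FDR = 4.7e-07). The animals were not alike: 5 of them stood between 2.3 and 4.76 CPM at 72 h and animal 201 at 0.456 CPM. Animal 206 was lower at 72 h than at 48 h, at 0.0419 CPM (log2 change -1.53). Over the 7 libraries PITX1 had 59 counts at 48 h and 1117 at 72 h. ENSBTAG00000052348, a protein-coding gene without a symbol in the sources used here, went from 1.43, 3.2 and 8.72 CPM to 2.3, 55.5 and 88.5 CPM (log2 change 3.57 ± 0.338, FDR = 4.8e-08). Here too animal 206 was lowest at 2.3 CPM and animal 201 next at 16.8 CPM, while the other 5 animals reached 32.7 to 88.5 CPM. A second gene without a symbol, ENSBTAG00000048562, went the other way, from 0.449, 0.859 and 1.89 CPM to 0.0901, 0.201 and 0.352 CPM with no overlap (log2 change -2.28 ± 0.207, FDR = 2.2e-08).

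Other developmental regulators were examined after their values had been seen. SIX2, a homeodomain factor of the sine oculis family, was measured at 7.29, 15.2 and 22.3 CPM at 48 h and at 18.5, 23.3 and 27.9 CPM at 72 h, higher in 7 of 7 animals (log2 change 0.65 ± 0.111, FDR = 0.00035); without animal 201 it no longer met both thresholds. BARX1, another homeodomain factor, was upregulated (0.72 ± 0.151, FDR = 0.0013), and so was IRX5 (1.08 ± 0.341, FDR = 0.017), the latter from 40 counts at 48 h and 111 at 72 h and lost without animal 103, 201 or 202. EYA4, a transcriptional partner of SIX2 and its relatives, was downregulated from 11.0, 40.4 and 56.4 CPM to 3.39, 19.8 and 32.5 CPM (-1.12 ± 0.245, FDR = 0.0017), with animal 206 lowest at both times. SIX4 and TBX18 were lower by FDR but under 1.5-fold, at log2 changes of -0.38 and -0.52, and ZIC4 was higher under 1.5-fold at 0.47. TBX1 did not pass, at 0.10 (FDR = 0.63).

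Whether the step differed from the preceding one was tested directly, as the change from 48 h to 72 h minus the change from 24 h to 48 h; the 48 h samples enter both steps. In edgeR's test 10 genes (0.0684%) differed in the negative direction and 0 (0.0%) in the positive one, where the unadjusted p was below 0.05 for 346 genes against 309 in the negative one. They included SIM2 (difference of the log2 changes -2.56, FDR = 7.9e-10), HOXC10 (-1.76, FDR = 2.6e-08), HOXA10 (-1.83, FDR = 1e-07), SIM1 (FDR = 0.00016), the haemoglobin chains HBA and HBB, ENSBTAG00000048562, HOXB4 and HOXA9. SIM2, HOXC10, HOXA10 and SIM1 held this call when any single animal was left out. HOXB4 (FDR = 0.036) and HOXA9 (FDR = 0.039) lost it when 5 and 6 of the 7 animals, respectively, were left out singly, and ENSBTAG00000048562 without animal 101 or 202. Without the animal as block, 4 of the 10 genes were called. Of all tested genes, 1.88% were downregulated from 24 h to 48 h and 0.376% upregulated. For PITX1 the difference was 3.28 with an FDR of 0.38, so a difference from the preceding step was not shown.

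The haemoglobin chains varied widely between animals at 48 h. HBB was measured at 58.0 CPM in animal 101 at 48 h and at 0.0503 to 6.61 CPM in the other 6 animals, and at 0.152, 0.261 and 5.04 CPM at 72 h. It was lower at 72 h in 5 of 7 animals and higher in animals 201 and 206 (log2 change -3.51 ± 0.781, FDR = 0.0018), and HBA gave -3.79 ± 0.756 (FDR = 0.001) with 1 animal higher. Both calls at 72 h against 48 h held with any single animal left out, at smaller changes of -2.02 for HBB and -2.20 for HBA without animal 101. The difference from the preceding step was lost for HBB without animal 101, 103, 104 or 107 and for HBA without animal 101 or 103. NEFM, a neurofilament chain of nerve axons, was another gene of this kind: it stood at 8.42 CPM in animal 101 and 3.92 CPM in animal 107 at 48 h, at 0.194 to 0.299 CPM in the other 5, and at 0.0162 to 0.641 CPM at 72 h (-3.37 ± 0.824, FDR = 0.0032).

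The step from 0 h to 24 h has nearly the same length and shares no sample with the step from 48 h to 72 h. Against it, 210 genes (1.44%) differed in the negative direction and 168 (1.15%) in the positive one. Of the 545 genes downregulated at 72 h against 48 h, 90 were among the former, and of the 115 upregulated genes 24 were among the latter. The genes DE in both steps in the same direction were 3 downregulated genes (PRUNE2, PARS2 and HERC1), which is 0.55% of the 545 and 2.16% of the 139 (0.95% of all tested) downregulated from 0 h to 24 h, and 1 upregulated gene (ENSBTAG00000038258), which is 0.87% of the 115 and 0.943% of the 106 (0.725% of all tested). In the opposite direction the counts were equal, 3 of the downregulated genes and 1 of the upregulated ones. Without the animal as block 24 and 30 genes differed in the negative and positive direction. LAMA2 differed between these steps (FDR = 7.1e-07), at 0.35 from 0 h to 24 h and -1.09 from 48 h to 72 h. It had already fallen from 24 h to 48 h (-0.68, FDR = 9e-04), and its difference from that step did not pass (-0.41, FDR = 1.0). PRR32 also differed from the step from 0 h to 24 h (FDR = 0.0014), at -0.13 and 1.58. ND6, encoded in mitochondrial DNA, fell from 0 h to 24 h (-2.25) and rose from 48 h to 72 h (0.75), and the difference passed the test (FDR = 1.9e-06).

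Among the genes with a symbol that averaged at least 1 CPM and were upregulated in all 7 animals, PRR32, a proline-rich protein, changed most. It was measured at 0.951, 3.04 and 3.55 CPM at 48 h and at 4.71, 6.36 and 9.92 CPM at 72 h, without overlap (log2 change 1.58 ± 0.218, or 2.99-fold, FDR = 4.4e-05). FHL2, a LIM-domain protein of the sarcomere and nucleus, went from 0.855, 1.74 and 2.55 CPM to 2.68, 2.97 and 3.39 CPM, also without overlap (0.78 ± 0.132, FDR = 0.00034). CXCL3, a chemokine that attracts neutrophils, rose within each animal while the animals themselves varied widely, from 1.66, 4.27 and 10.8 CPM to 2.83, 7.26 and 19.8 CPM (0.86 ± 0.16, FDR = 0.00062). CCL1, another chemokine, rose from a median of 3.22 to 5.33 CPM (0.66 ± 0.138, FDR = 0.0013), and without animal 103 the change was 0.50, under 1.5-fold. CYP26B1, which degrades retinoic acid, was measured at 4.5, 7.28 and 8.22 CPM and then at 5.45, 9.75 and 23.0 CPM (0.72 ± 0.17, FDR = 0.0025) and lost its call without animal 107.

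Some of the upregulated genes encode proteins found in muscle. MYL6B, a myosin alkali light chain, and CSRP3, the muscle LIM protein of the Z-disc, were abundant and are named after their values were seen. MYL6B ranged from 53.8 to 585 CPM at 48 h and from 134 to 752 CPM at 72 h, higher in 6 of 7 animals (1.42 ± 0.313, FDR = 0.0017). CSRP3 went from 137, 280 and 569 CPM to 265, 581 and 1260 CPM, also in 6 of 7 animals (1.003 ± 0.203, FDR = 0.0011), with animal 202 highest at 72 h. METTL21C, a muscle protein methyltransferase, rose in 7 of 7 animals (0.70 ± 0.179, FDR = 0.0045), with 0.50, under 1.5-fold, when animal 202 was left out. The remaining upregulated genes singled out by rank were FBN3, WDR86, CNN1, HMGB3, TSPAN2, SYN1 and RXFP2, at log2 changes from 0.59 to 1.09. TSPAN2 and RXFP2 lost the call without animal 206, and SYN1, which is barely past 1.5-fold, without animal 104, 107, 201 or 202.

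Gene lists were read only over members whose symbol was known, 3106 genes that had been DE against 0 h at some time on these same samples, so that no list count is independent evidence of its direction. Of these 3106 genes, 66 (2.12%) were upregulated and 435 (14%) downregulated at 72 h against 48 h; by FDR alone 724 (23.3%) were higher and 1381 (44.5%) lower, with a median log2 change of -0.25.

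Among the named members, mRNAs for the machinery of protein synthesis and of respiration were mostly slightly higher at 72 h. Ribosomal protein genes have near-identical copies elsewhere in the genome, so reads may be split between them. All 63 named cytosolic ribosomal protein genes were higher by FDR and 0 reached 1.5-fold, with changes from 0.23 to 0.50 and a median of 0.30, against 0.0061 over all tested genes. RPS29, a protein of the small subunit, was measured at 187, 194 and 220 CPM at 48 h and at 210, 264 and 285 CPM at 72 h (0.37 ± 0.0593, FDR = 0.00023). Together the 63 genes made up 1.8% ± 0.16 (SD, n = 7) of the reads counted at 48 h and 2.09% ± 0.221 of those at 72 h, higher in 7 of 7 animals. Of 33 nuclear-encoded respiratory chain subunits 32 were higher by FDR and 1 lower, none past 1.5-fold, with a median of 0.30; NDUFA3, a subunit of complex I, went from 62.7, 86.3 and 136 CPM to 82.5, 123 and 170 CPM (0.46 ± 0.0839, FDR = 0.00055). Mitochondrial ribosomal proteins were alike, with 20 of 21 higher and 1 lower (median 0.30). Without the animal as block 58 cytosolic ribosomal, 16 respiratory and 11 mitochondrial ribosomal genes were higher by FDR.

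Of the 8 mitochondrially encoded protein genes, 5 were higher by FDR and 3 did not pass, at a median change of 0.31; with total counts as scaling 1 was higher by FDR, and without the animal as block 0. ND6, the complex I subunit on the light strand, alone reached 1.5-fold, from 3.61, 6.92 and 8.53 CPM to 6.71, 9.92 and 19.2 CPM in 6 of 7 animals (0.75 ± 0.244, FDR = 0.02), and its FDR was 0.07 without animal 103 and 0.068 without animal 201; its strand opposes that of the other subunits, so it shares the limit on strand given for the HOX genes. The 8 genes took 2.52% ± 0.725 and 2.86% ± 0.635 of counts at 48 h and 72 h, higher in 5 of 7 animals. Spliceosome and RNA helicase genes were higher by FDR in 12 of 14 cases, among them the core proteins SNRPD1, SNRPD2, SNRPD3 and SNRPG (0.36 to 0.45), and the helicases DDX3X (-0.52) and DHX36 (-0.26) were lower. Proteasome subunits gave 3 higher and 1 lower of 4, and translation factors 5 higher and 2 lower of 7, where EIF4EBP2, which restrains cap-dependent translation, was downregulated (-0.74 ± 0.171, FDR = 0.0022).

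The downregulated side held regulators of muscle mass and fuel use. In the list of muscle atrophy and ubiquitin ligases, which also holds deubiquitinases such as USP9X, 10 of 10 genes were lower by FDR. The 7 called downregulated (list median -0.72) were FBXO30, FBXO32, FBXO40, MDM2, CUL5, USP9X and HERC1. USP9X lost the call without animal 103, 104, 201 or 206. FBXO32, or atrogin-1, the muscle ubiquitin ligase of atrophy, was measured at 48.4, 96.0 and 123 CPM at 48 h and at 36.0, 46.0 and 86.2 CPM at 72 h, lower in 7 of 7 animals with overlapping groups (-0.76 ± 0.163, FDR = 0.0014). FOXO3, the transcription factor that drives FBXO32, went from 12.7, 17.4 and 25.1 CPM to 4.86, 9.34 and 15.8 CPM (-0.97 ± 0.176, FDR = 0.00057). It belongs to a list of 24 genes of insulin, PI3K, FoxO and AMPK signalling in which 19 were lower and 1 higher by FDR, with 5 downregulated and 0 upregulated past 1.5-fold (median -0.40).

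The list holds 3 subunits of AMPK, the kinase that senses low energy. PRKAB2, the regulatory beta subunit of muscle, fell from 12, 28.6 and 54.0 CPM to 3.6, 8.55 and 41.4 CPM in 7 of 7 animals (-1.30 ± 0.279, FDR = 0.0014), with animals 103, 104, 201 and 206 losing 1.72 to 2.13 on the log2 scale and animal 202 only 0.38. PRKAA2, the main catalytic subunit of muscle, was downregulated (-0.98, FDR = 0.0041), as were PDPK1 and SOS2, while the other catalytic subunit, PRKAA1, was lower under 1.5-fold (-0.22, FDR = 0.032), whereas IGF2 was the single gene higher by FDR (0.21, FDR = 0.02). SOS2 lost its call without animal 103 or 104.

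Glycogen and glycolysis genes were divided, 4 lower and 3 higher by FDR of 7. HK2, the hexokinase of muscle, was downregulated at -0.76 (FDR = 0.038) but not without animal 103, 104, 107 or 201. PFKFB1, PGAM2 and ENO3 were higher under 1.5-fold, at 0.34, 0.32 and 0.20. The sarcomere list was divided in the same manner, with 9 higher and 3 lower by FDR of 17. Its 2 downregulated genes, XIRP2 and SYNPO2, bind actin at the Z-disc and were each lower in 6 of 7 animals, and both lost the call without animal 103, 104 or 201, XIRP2 also without animal 101. Troponin and tropomyosin genes were higher under 1.5-fold, for example TPM2 (0.37), TNNT1 (0.54) and TNNI2 (0.32), the last from 8110, 9270 and 11000 CPM to 9400, 11700 and 15800 CPM. The 17 genes together took 8.89% ± 0.418 and 9.79% ± 0.684 of counts, higher at 72 h in 5 of 7 animals.

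Matrix and fibroblast genes were lower. LAMA2, the laminin chain that links the fibre to its basement membrane, was measured at 21.1, 29.6 and 31.7 CPM at 48 h and at 8.15, 13.2 and 19.3 CPM at 72 h. No 72 h value reached the lowest 48 h value, and the fall was 2.13-fold (-1.09 ± 0.111, FDR = 2.4e-07). Of 17 matrix and integrin genes 15 were lower by FDR, 0 were higher, and 4 were called: LAMA2, FBN1, ITGAV and COL4A3 (median -0.47), a number that was 8 with total counts as scaling. ITGAV and COL4A3 lost the call without animal 103, 104 or 201. Among 5 fibroblast markers 5 were lower and 3 were called, FBN1, PDGFRA and SCARA5. PDGFRA, the growth factor receptor that marks muscle fibroblasts, went from 37.0, 43.5 and 53.3 CPM to 13.7, 30.5 and 33.7 CPM without overlap (-0.78 ± 0.139, FDR = 5e-04), and the summed level of the 5 markers moved from 209 to 373 CPM at 48 h to 101 to 283 CPM at 72 h.

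Macrophage markers moved in the same direction. All 11 had negative changes, 8 of them by FDR, and 7 were called (MSR1, C1QC, C1QB, CSF1R, CD163, FOLR2 and MRC1; median -0.63), while the summed level of the 11 went from 34.0 to 74.7 CPM to 14.9 to 53.4 CPM. CSF1R, the receptor that macrophages need to survive, was measured at 3.4, 9.59 and 12.9 CPM and then at 1.58, 5.66 and 9.22 CPM, lower in 7 of 7 animals (-0.69 ± 0.198, FDR = 0.0091), and lost the call without animal 104, as did CD163 and FOLR2. CD5L, a secreted macrophage protein named after its values were seen, fell without overlap from 0.853, 1.43 and 2.77 CPM to 0.304, 0.433 and 0.721 CPM (-1.69 ± 0.219, FDR = 1.9e-05). Complement genes, 2 of which (C1QB and C1QC) are also called macrophage markers, were lower in 11 of 17 cases by FDR and downregulated in 7, with 0 higher. C7, a part of the membrane attack complex, went from 19.0, 25.3 and 36.0 CPM to 9.35, 13.4 and 19.7 CPM (-0.87 ± 0.134, FDR = 0.00017), and C1S, the protease of the classical pathway, from 34.2, 44.9 and 50.2 CPM to 15.2, 30.4 and 32.4 CPM without overlap. Lower levels were thus seen for matrix, fibroblast, macrophage and complement genes. PDGFRA and C7 fell most in animals 202 (log2 changes -1.73 and -1.43) and 103 (-1.41 and -1.52). CSF1R fell most in animal 104 (-1.95), followed by animal 103 (-1.08), and changed by -0.271 in animal 202. What part lower levels of these cell types took in the matrix and complement results was not tested. Without animals 101 and 206, an alternative added after the data were seen, 4 macrophage and 5 complement genes were downregulated. Without the animal as block the macrophage count was 0 (0 also by FDR alone), the complement count 3 and the matrix count 2, while the fibroblast count was 3. With total counts as scaling the macrophage and complement counts were 9 and 10.

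**Figure D3:**
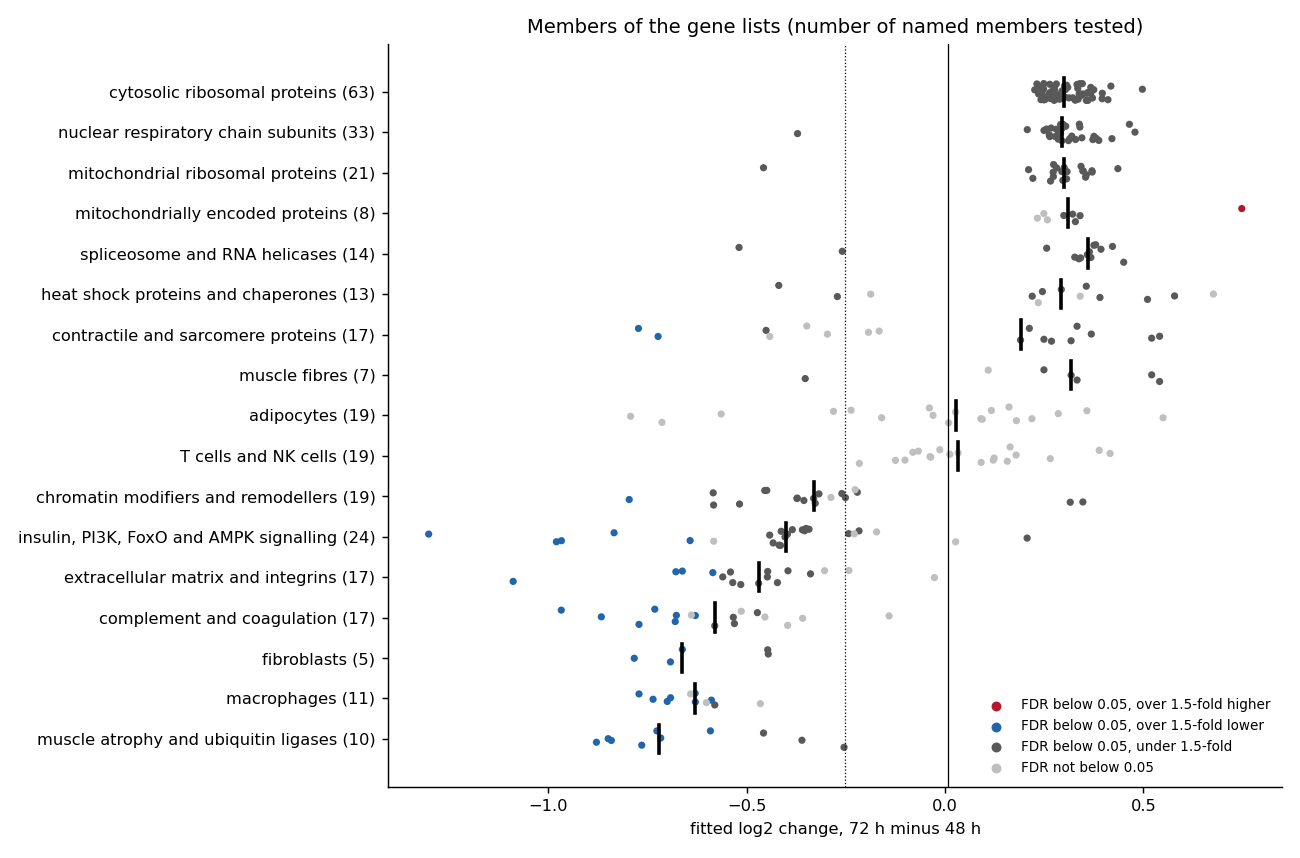
Fitted log2 change from 48 h to 72 h (horizontal axis) for each named member of 17 gene lists, with the number of members in brackets and the list median as a black bar. The solid line is the median of all tested genes (0.0061) and the dotted line that of the genes with a symbol (-0.253). The 63 ribosomal protein genes lie at 0.226 to 0.497, to the right of every gene of the macrophage, fibroblast, and muscle atrophy and ubiquitin ligase lists.

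Neither the adipocyte list nor the T cell and NK cell list held a gene that passed the test. Of 19 adipocyte markers, 0 were higher and 0 were lower by FDR (median 0.03), and PLIN4, a lipid droplet coat protein, gave -0.28 ± 0.163 (FDR = 0.18). The 19 T cell and NK cell markers likewise gave 0 passing genes (median 0.03), and their summed level was 26.1 to 33.4 CPM at 48 h and 25.3 to 34.1 CPM at 72 h. Smooth muscle and pericyte markers were higher in 4 of 7 cases and lower in 1, with CNN1, or calponin, called (0.74 ± 0.242, FDR = 0.02) but not without animal 103 or 201. In the Schwann cell and nerve list 3 of 6 were higher and 1 lower, with SOX10 and PRX called at 0.64 and 0.65, PRX higher in only 4 of 7 animals. SOX10 lost the call without animal 103 and PRX without animal 101, 103, 107 or 206. Endothelial markers gave 2 higher of 3, satellite cell markers 2 higher and 1 lower of 3 (MYOD1 0.41, FDR = 0.0015), and B cell markers 1 lower of 3, the complement receptor CR2 (-0.98, FDR = 0.0023). Neutrophil and monocyte markers were lower in 3 of 6 cases, with S100A9 called at -1.28 (FDR = 0.02) but not without animal 101 or 103. Chemokines were 1 higher (CXCL3) and 1 lower of 8 (CCL24, not without animal 101 or 104). Over all genes with a symbol 44.5% were lower by FDR, so the B cell, neutrophil and monocyte counts are near that share.

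Genes of the stress lists changed in both directions. Heat shock genes were higher by FDR in 7 of 13 cases and lower in 2, without a call past 1.5-fold; the small heat shock proteins HSPB1 (0.58), CRYAB (0.51), HSPB3 (0.39) and HSPB2 (0.36) led, while HSPA1A (0.34, FDR = 0.22) and HSPA6 (0.68, FDR = 0.23) did not pass. Among 14 immediate early and stress genes 6 were higher and 2 lower by FDR. ATF3, a stress-induced factor, went from 88.2, 121 and 181 CPM to 69.7, 247 and 388 CPM, higher in 5 of 7 animals (0.64 ± 0.215, FDR = 0.024), and lost the call without animal 101, 103, 107 or 202. KLF9 and SESN3, both targets of glucocorticoid or FoxO signalling, were downregulated at -0.70 and -0.71, SESN3 without overlap. Of 9 apoptosis and autophagy genes 6 were lower and 2 higher, and the called ones, BCL2 (-0.94 ± 0.181, FDR = 0.00085) and XIAP (-0.66 ± 0.161, FDR = 0.0031, lost without animal 104), both encode inhibitors of cell death. The autophagy proteins MAP1LC3A and GABARAP were the higher ones, at 0.39 and 0.22.

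Chromatin modifiers were lower by FDR in 15 of 19 cases and higher in 2 (median -0.33), with HDAC9, a class IIa histone deacetylase of muscle, called at -0.80 (FDR = 0.004) and EZH2 and ATRX higher at 0.32 and 0.35. With total counts as scaling 4 chromatin genes and 3 dystrophin complex genes were downregulated, against 1 in each list with TMM. The dystrophin complex gave 5 lower and 1 higher of 8, calcium handling 3 lower and 2 higher of 7, and the hypoxia list 2 lower of 6, without a call in the last 2. As 44.5% of all genes with a symbol were lower by FDR, the calcium handling and hypoxia counts are near that share. For the calpain and cathepsin proteases, which act on the muscle during ageing of meat, only CTSW carried a symbol, and it did not pass (0.02 ± 0.172, FDR = 0.94).

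The other downregulated genes singled out by the size of the change were C6H4orf54, USP13, KY, TMEM245, SETD7 and UHMK1, at log2 changes from -1.55 to -1.21. A fall in all 7 animals was a condition of naming them. The same condition on sign held for SIM2, HOXA10, HOXC10, HOXB4, SIX2, CXCL3, METTL21C and PRKAB2, which were also singled out by rank. KY, a protease of the muscle cytoskeleton, went from 9.54, 40.5 and 78.3 CPM to 3.27, 16.6 and 23.9 CPM (-1.37 ± 0.28, FDR = 0.0011). SETD7, a lysine methyltransferase, went from 31.0, 48.7 and 95.7 CPM to 11.5, 19.1 and 73.8 CPM (-1.23 ± 0.231, FDR = 0.00071), and the overlap came from 1 high animal at 72 h.

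The animals took part to different degrees. The median change over the 545 downregulated genes was -1.11 in animals 103 and 104 and -1.03 in animal 201, but -0.381 in animal 202, -0.439 in animal 107 and -0.481 in animal 101, with animal 206 at -0.732. As these genes were chosen on the same animals, the genes were also called on 6 animals and read in the seventh. Of the genes called downregulated in the other 6 animals, 84.5% (animal 202) to 96.6% (animal 104) were lower in the animal left out, where 47.4% to 54.1% of all tested genes were lower. For upregulated genes the shares were lower, 63.1% (animal 201) to 87.3% (animal 103), against 45.8% to 52.5% of all tested genes higher. Left out in turn, animals 103, 104 and 202 changed the number of downregulated genes most, to 384, 386 and 756.

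**Figure D4:**
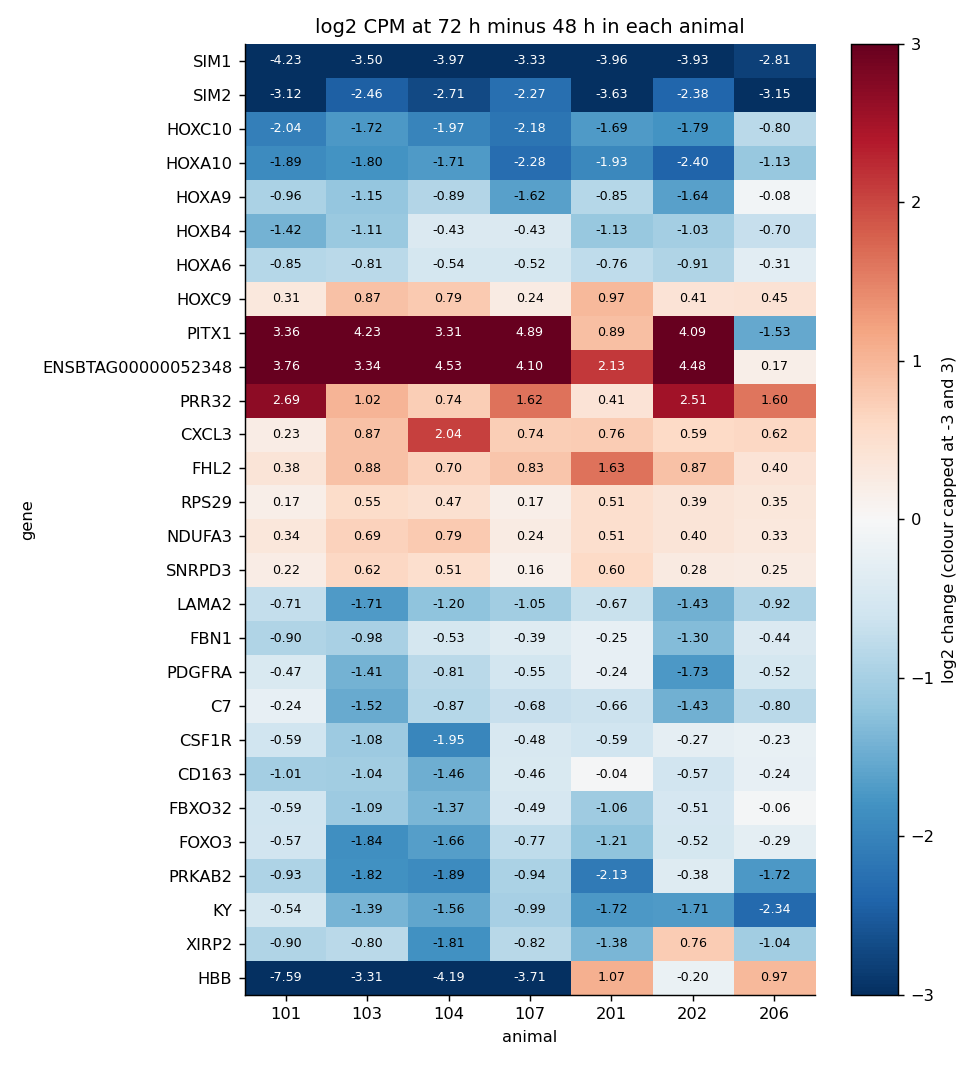
Change in log2 CPM from 48 h to 72 h for 28 genes (vertical axis) in each of the 7 animals (horizontal axis), with the value printed in each cell and the colour capped at -3 and 3. SIM1, SIM2, HOXC10 and HOXA10 are lower in every animal, whereas PITX1 has -1.53 in animal 206 and HBB has -7.59 in animal 101 and positive values in animals 201 and 206.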

How the data were processed

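Counts were used from the deposited table of raw read counts per gene, labelled reverse strand, with 27607 Ensembl genes by 35 samples. The authors made it by trimming (Trimmomatic 0.39), mapping to ARS-UCD1.2 (STAR 2.7.0f) and counting over exons (featureCounts 1.6.4). The methods state strand-specific counting together with an unstranded option. Low genes were removed with filterByExpr (minimum count 10, group time point), which left 14630. TMM factors (0.941 to 1.01 at 48 h, 0.846 to 0.997 at 72 h) and a negative binomial model with time point and animal were fitted to all 35 samples in edgeR 4.0.16 (R 4.3.3; common biological coefficient of variation 0.117), and the contrast 72 h minus 48 h was tested by quasi-likelihood F test with Benjamini-Hochberg adjustment. Contrasts of this step minus the steps from 24 h to 48 h and from 0 h to 24 h tested the differences directly. Lowest, median and highest values are CPM with TMM factors; changes within 1 animal use log2 CPM with a prior count of 2.

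Animal numbers mark the same carcass. Deviations from the group means at 48 h and 72 h correlated at 0.434 to 0.724 in the 7 pairs from the same animal (median 0.595) and at a median of -0.0948 in 42 pairs from different animals, across genes.

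Symbols (3106 genes) and biotypes (3640 genes) came from the study's list of genes DE against 0 h, held here in part, and no other symbols were used; its own fold changes and p-values were not used. Gene order came from RefSeq ARS-UCD2.0, whose build differs from that of the files, so no coordinates, lengths or sequences are given. Genes were named by rule: per direction the 12 largest changes and the 6 lowest FDR among called genes with a symbol, a mean of 1 CPM or more and the sign shared by all 7 animals, and up to 4 called members of each of 34 lists (or, without a called member, the one of lowest FDR). The genes, lists and comparison were chosen with earlier results of these data known, and the HOX and patterning genes, MYL6B, CSRP3, CD5L and genes without a symbol were added after their values were seen. A planned permutation test of count shares was left out, because the classes were read over genes that were DE on these samples.

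On simulated counts for this contrast, 91 of 100 genes changed 2-fold and 99 of 100 changed 3-fold were recovered, with 7 false calls among 14360 unchanged genes. Recovery of changes between 1.5-fold and 2-fold was not tested, nor were calls of genes with true changes under 1.5-fold. Alternatives covered the block, samples, scaling, filter, test (DESeq2 1.42.0, limma 3.58.1), thinning and each animal left out. Results for some genes are not reported here.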

Additional observations from a re-analysis of the deposited data

Results flagged for a closer look

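In 15 of 206 groups of 7 animals a single sample stood apart from the other 6 by Dixon's criterion, the gap to the nearest sample over the whole range, where chance gives about 1 in 20. Animal 206 gave most of them. At 48 h it was low for SYN1 (5.39 CPM, others 11.3 to 16.4), RXFP2 (0.948 CPM, others 2.07 to 3.32), HOXC10 (48.5 CPM, others 63.4 to 73.2) and EYA4 (11.0 CPM, others 34.0 to 56.4), and its share of counts from mitochondrially encoded proteins was high at 4.06%. At 72 h the same animal was low for SYN1 (5.73 CPM, others 17.0 to 26.5), HK2 (4.73 CPM, others 25.2 to 61.4) and IRX5 (0.0419 CPM, others 0.253 to 0.439), and high for HOXA6 (4.06 CPM, others 2.61 to 3.04).

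The remaining values that stood apart came from other animals. At 48 h these were FHL2 in animal 201 (0.855 CPM, others 1.64 to 2.55) and PITX1 in animal 107 (0.0754 CPM, others 0.185 to 0.247). At 72 h they were HOXA10 in animal 107 (1.59 CPM, others 2.96 to 4.03), SESN3 in animal 103 (1.67 CPM, others 2.68 to 3.24), and PDPK1 and XIAP in animal 202 (12.9 CPM against 4.25 to 6.71, and 6.48 CPM against 2.3 to 3.15).

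The step from 48 h to 72 h differed from the step from 24 h to 48 h in 10 genes by the contrast of both. The differences of the log2 changes included -2.56 for SIM2, -1.83 for HOXA10, -1.76 for HOXC10, -1.01 for HOXB4, -1.12 for HOXA9, -6.57 for SIM1 (no reads at 72 h, so the size depends on the prior count), -7.38 for HBA, -7.22 for HBB and -1.85 for ENSBTAG00000048562. From the step from 0 h to 24 h, 210 genes differed in the negative and 168 in the positive direction.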

How the results depend on the processing

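The counts of 115 upregulated and 545 downregulated genes depended mostly on how the fold threshold was applied. With edgeR's glmTreat, which tests against a 1.5-fold change, 3 and 8 genes were called; with the FDR alone 2411 and 2430. Without the animal as replicate block the counts were 28 and 317, and the 10 genes that differed from the step from 24 h to 48 h became 4, while the 168 and 210 genes that differed from the step from 0 h to 24 h became 30 and 24. Of the 660 calls, 336 remained without the block. Total counts as the only scaling gave 64 and 866, and a minimum of 1 CPM in 7 samples gave 59 upregulated genes. With animals left out in turn, upregulated genes numbered 80 to 160 and downregulated genes 384 to 756; genes that differed from the preceding step numbered 0 to 1 (ENSBTAG00000006688, without animal 206) in the positive and 4 to 8 in the negative direction, with 4 without animal 101 and 5 without animal 103. Genes that differed from the step from 0 h to 24 h numbered 90 to 276 in the positive and 120 to 415 in the negative direction, with 276 and 415 without animal 206, 110 and 121 without animal 103, and 90 and 120 without animal 104. DESeq2's Wald test gave 102 and 528 and limma voom 116 and 605. SIM1, SIM2, HOXC10, HOXA10, LAMA2, CD5L, ENSBTAG00000048562, PITX1, PRR32 and ENSBTAG00000052348 were among the genes called by glmTreat. Over 105 genes and all alternatives, 1853 of 2078 values kept their direction and side of the thresholds, 207 fell short of them and 8 changed sign. The sign changed only for CTSW (-0.07065 with total counts, and -0.07274 to 0.1409 with animals left out in turn, negative without 101, 103 or 104) and HOXD4 (0.0634 without the block, and -0.1563 to 0.1374 with animals left out in turn, positive without 103, 104 or 107), neither of which passed in any of these. The cause of these shifts was not tested. Depth limits the genes with few reads, such as HOXD10, IRX5 and bta-mir-196b; with all libraries thinned to the smallest, 111 and 505 genes were called.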
